A study of Arabidopsis thaliana with 28 samples.

Results

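The genes described here gave transcripts in seedlings of the Arabidopsis accession C24 and almost none in the accession Col. They were chosen by their mean RPM (reads scaled to a common library total) in the 4 parental genotypes, as genes that averaged at least 3 RPM in both ddm1-C24 and WT-C24 and at most 0.3 RPM in both ddm1-Col and WT-Col (3 libraries each). Of the 28437 genes in the table, 13 met this rule. The parental levels selected the genes and are given as a description without a test, whereas no hybrid library entered the selection.

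RNA of whole 2-week-old seedlings was sequenced in 24 libraries, 3 of each of 8 genotypes. In the mutant background these were the reciprocal F1 hybrids ddm1-ColxC24 and ddm1-C24xCol (ddm1ColXddm1C24 and ddm1C24Xddm1Col in the labels, with the maternal parent first), in which both parents carried a ddm1 mutation, and their parents ddm1-C24 and ddm1-Col. In the wild-type (WT) background these were WT-ColxC24 and WT-C24xCol and their parents WT-C24 and WT-Col. The study describes several ddm1 alleles per accession, and which of them entered RNA sequencing is not given in the sources used here. The 6 hybrid libraries of a background are called ddm1-F1 and WT-F1.

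DDM1 is a chromatin remodeler that lets DNA methylation be kept in silent chromatin, and its loss derepresses many transposable elements. An F1 hybrid carries 1 allele of every gene from each parent. Where only the C24 parent expresses a gene, a hybrid in which each allele behaves as in its parent is predicted to show 0.5 of the C24 level, called the C24 dose here, which is nearly the same as the mid-parent value (MPV), the mean of both parents. The hybrid level over the C24 dose is called the dosage ratio, and a ratio of 1 is additive.

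All 13 genes are annotated as protein coding, on all 5 nuclear chromosomes, and none overlaps another annotated gene. The 2 with a symbol are GLP6 (AT5G39100), a germin-like protein of the cupin family found in the apoplast, and FUT8 (AT1G14100), a fucosyltransferase of the family that fucosylates cell wall polysaccharides. AT4G00960 encodes a protein kinase, AT1G63870 an immune receptor of the TIR-NBS-LRR class, the group of intracellular proteins that recognize pathogen effectors, and AT3G22940 an F-box associated protein of the kind that selects substrates for ubiquitination. AT5G53700 and AT4G24420 hold RNA recognition motifs, AT5G28450 is annotated as a chlorophyll A-B binding protein, AT1G51990 as an O-methyltransferase, AT4G12280 as a copper amine oxidase, AT1G65200 as related to ubiquitin C-terminal hydrolases and AT2G41470 as an agamous-like MADS-box protein, while AT1G03106 is uncharacterized.

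Sequence upstream of the annotated gene start is shown for the 6 genes called in a comparison of hybrids, with or without the replicate block, since it belongs to the Col alleles that gave almost no transcript. The sequences are from the TAIR10.1 reference, which is Col, and the C24 sequence was not analysed here. Each is written 5′ to 3′ on the strand of its gene and ends at the base before the gene start, with TATAAA (the TATA box letters) or TTGACC (W-box letters) on either strand in capitals.

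GLP6, minus strand, chr5:15654029-15654278: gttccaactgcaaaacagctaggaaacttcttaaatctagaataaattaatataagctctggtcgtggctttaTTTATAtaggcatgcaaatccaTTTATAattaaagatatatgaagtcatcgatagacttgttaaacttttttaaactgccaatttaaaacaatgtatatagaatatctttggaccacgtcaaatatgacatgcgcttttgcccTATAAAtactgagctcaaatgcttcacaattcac
AT4G00960, plus strand, chr4:413954-414203: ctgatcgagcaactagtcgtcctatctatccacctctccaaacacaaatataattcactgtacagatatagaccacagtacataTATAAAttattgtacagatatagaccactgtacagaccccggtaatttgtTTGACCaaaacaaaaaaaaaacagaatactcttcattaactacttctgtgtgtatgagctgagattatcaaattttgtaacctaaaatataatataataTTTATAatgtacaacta
AT4G24420, plus strand, chr4:12626390-12626639: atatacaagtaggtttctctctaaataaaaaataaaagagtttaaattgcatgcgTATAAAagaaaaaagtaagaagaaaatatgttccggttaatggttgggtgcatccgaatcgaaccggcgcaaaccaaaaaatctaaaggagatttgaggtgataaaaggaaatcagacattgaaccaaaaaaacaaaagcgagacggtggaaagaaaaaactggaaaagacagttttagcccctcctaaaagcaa
AT5G53700, plus strand, chr5:21800893-21801142: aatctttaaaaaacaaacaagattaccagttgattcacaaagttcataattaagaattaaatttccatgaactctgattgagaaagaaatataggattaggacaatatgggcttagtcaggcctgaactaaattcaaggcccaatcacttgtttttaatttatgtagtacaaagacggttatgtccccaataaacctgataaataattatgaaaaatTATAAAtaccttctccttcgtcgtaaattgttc
AT5G28450, minus strand, chr5:10374191-10374440: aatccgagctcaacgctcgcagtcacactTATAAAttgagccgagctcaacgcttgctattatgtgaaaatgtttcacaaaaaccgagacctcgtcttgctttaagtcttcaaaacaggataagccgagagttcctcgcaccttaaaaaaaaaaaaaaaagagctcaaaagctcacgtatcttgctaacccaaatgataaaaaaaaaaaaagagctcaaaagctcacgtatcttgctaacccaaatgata
AT1G03106, minus strand, the 211 bases outside the neighbouring gene, chr1:749035-749245: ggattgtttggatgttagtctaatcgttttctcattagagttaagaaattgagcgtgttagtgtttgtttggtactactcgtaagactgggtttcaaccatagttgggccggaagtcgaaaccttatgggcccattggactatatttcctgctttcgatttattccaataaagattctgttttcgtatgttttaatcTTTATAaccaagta

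In the Col reference, a TATAAA on the gene's own strand began 34 bases before the start of GLP6 and 33 bases before the start of AT5G53700. The window of AT5G28450 ended in a stretch of 51 bases that was repeated exactly, the copies lying next to each other. Within 250 bases upstream, 10 of the 13 genes held TATAAA on either strand, against 44.8% of 28330 such windows. TTGACC was found in 3 (FUT8, AT1G63870 and AT4G00960), against 11.8% of all windows, and CACGTG, the G-box letters, in 1 (AT1G65200), against 6.35%. These matches describe letters only.

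In C24 the genes were expressed at low to moderate level. Per kb of transcript, AT5G53700 (21.1 RPM per kb in ddm1-C24 and 22.3 in WT-C24), AT5G28450 (12.2 and 17.7) and AT1G03106 (4.85 and 17.1) had the highest levels in WT-C24, and AT1G65200 (1.04 and 1.25) and AT1G63870 (1.70 and 1.58) the lowest. GLP6 was the gene whose C24 level differed most between backgrounds, with 33.2 RPM per kb in ddm1-C24 and 4.54 in WT-C24. The lowest value of any of the 13 genes in a C24 library was 1.5 RPM, and the highest in a Col library was 0.6 RPM. AT1G51990, AT3G22940 and AT4G12280 were at 0 in all 6 Col libraries, and the other 10 genes had at least 1 Col library above 0. Values are in steps of 0.1 RPM, so that 0 means a level too low for that step.

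At the edge of the rule, the genes just inside on the C24 side were AT3G22940, AT4G12280 and AT1G65200, whose lower C24 means were 3.07, 3.27 and 3.43 RPM. Just outside were AT4G32208, an Hsp70 family gene (2.97 RPM), the transcribed pseudogene AT3G30120 (2.67 RPM) and AT1G47980, a desiccation-like gene (2.67 RPM). On the Col side AT4G00960, AT5G28450 and FUT8 were just inside, with higher Col means of 0.30, 0.27 and 0.23 RPM, and AT5G25920, DELTA-VPE (AT3G20210) and AT1G62190 just outside, with 0.40, 0.40 and 0.43 RPM. The list was thus short and sensitive to its limits. Under a C24 limit of 1 RPM it would have 76 genes, and 5 if each of the 12 parental libraries had to meet the rule.

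Some facts about the libraries touch the results. The transcript of DDM1 (AT5G66750) was lower in the libraries labelled ddm1-Col (1.7 to 2.6 RPM) than in WT-Col (6.3 to 12.6 RPM), but not in those labelled ddm1-C24 (6.7 to 14.3 RPM, against 6.0 to 12.4 RPM in WT-C24), so that the transcript does not check that label. In the hybrids it had 4.1 to 8.6 RPM in ddm1-F1 and 5.4 to 12.1 RPM in WT-F1, which overlap, so that it does not separate those labels either. Every direction that rests on ddm1-C24 rests on the label. Genes at 0 RPM numbered 2113 to 3975 in the ddm1 libraries and 4515 to 6076 in the WT libraries. This difference in detection coincides with the background, and its part in the comparisons of ddm1 with WT was not tested. The summed RPM of 3 shoot markers lay between 15600 and 25080 in all libraries. The sum of 3 seed storage and maturation markers was uneven, with 1.0 to 156.3 RPM in ddm1-F1 and 2.7 to 611 RPM in WT-F1, and with 133 to 370.3 RPM in ddm1-C24, 2.8 to 49.4 RPM in ddm1-Col, 567.2 to 1861 RPM in WT-C24 and 9.2 to 14.7 RPM in WT-Col. All 3 seed markers were above 0 in every genotype, and their sums were higher in the C24 parents than in the Col parents. In the hybrids they differed by cross direction. The sums were 31.4 to 156.3 RPM in ddm1-C24xCol and 1.0 to 3.2 RPM in ddm1-ColxC24. In WT they were 132.5 to 611 RPM in WT-C24xCol and 2.7 to 137.5 RPM in WT-ColxC24, which overlap. The part of seed transcripts in the presence of these 13 transcripts in C24 was not tested. In whole seedlings, fewer cells that express a gene and less RNA per cell cannot be told apart. The labels do not say whether replicates were separate cultures (the study's methods have plates in triplicate), so p-values measure the spread between these libraries.

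**Figure D1:**
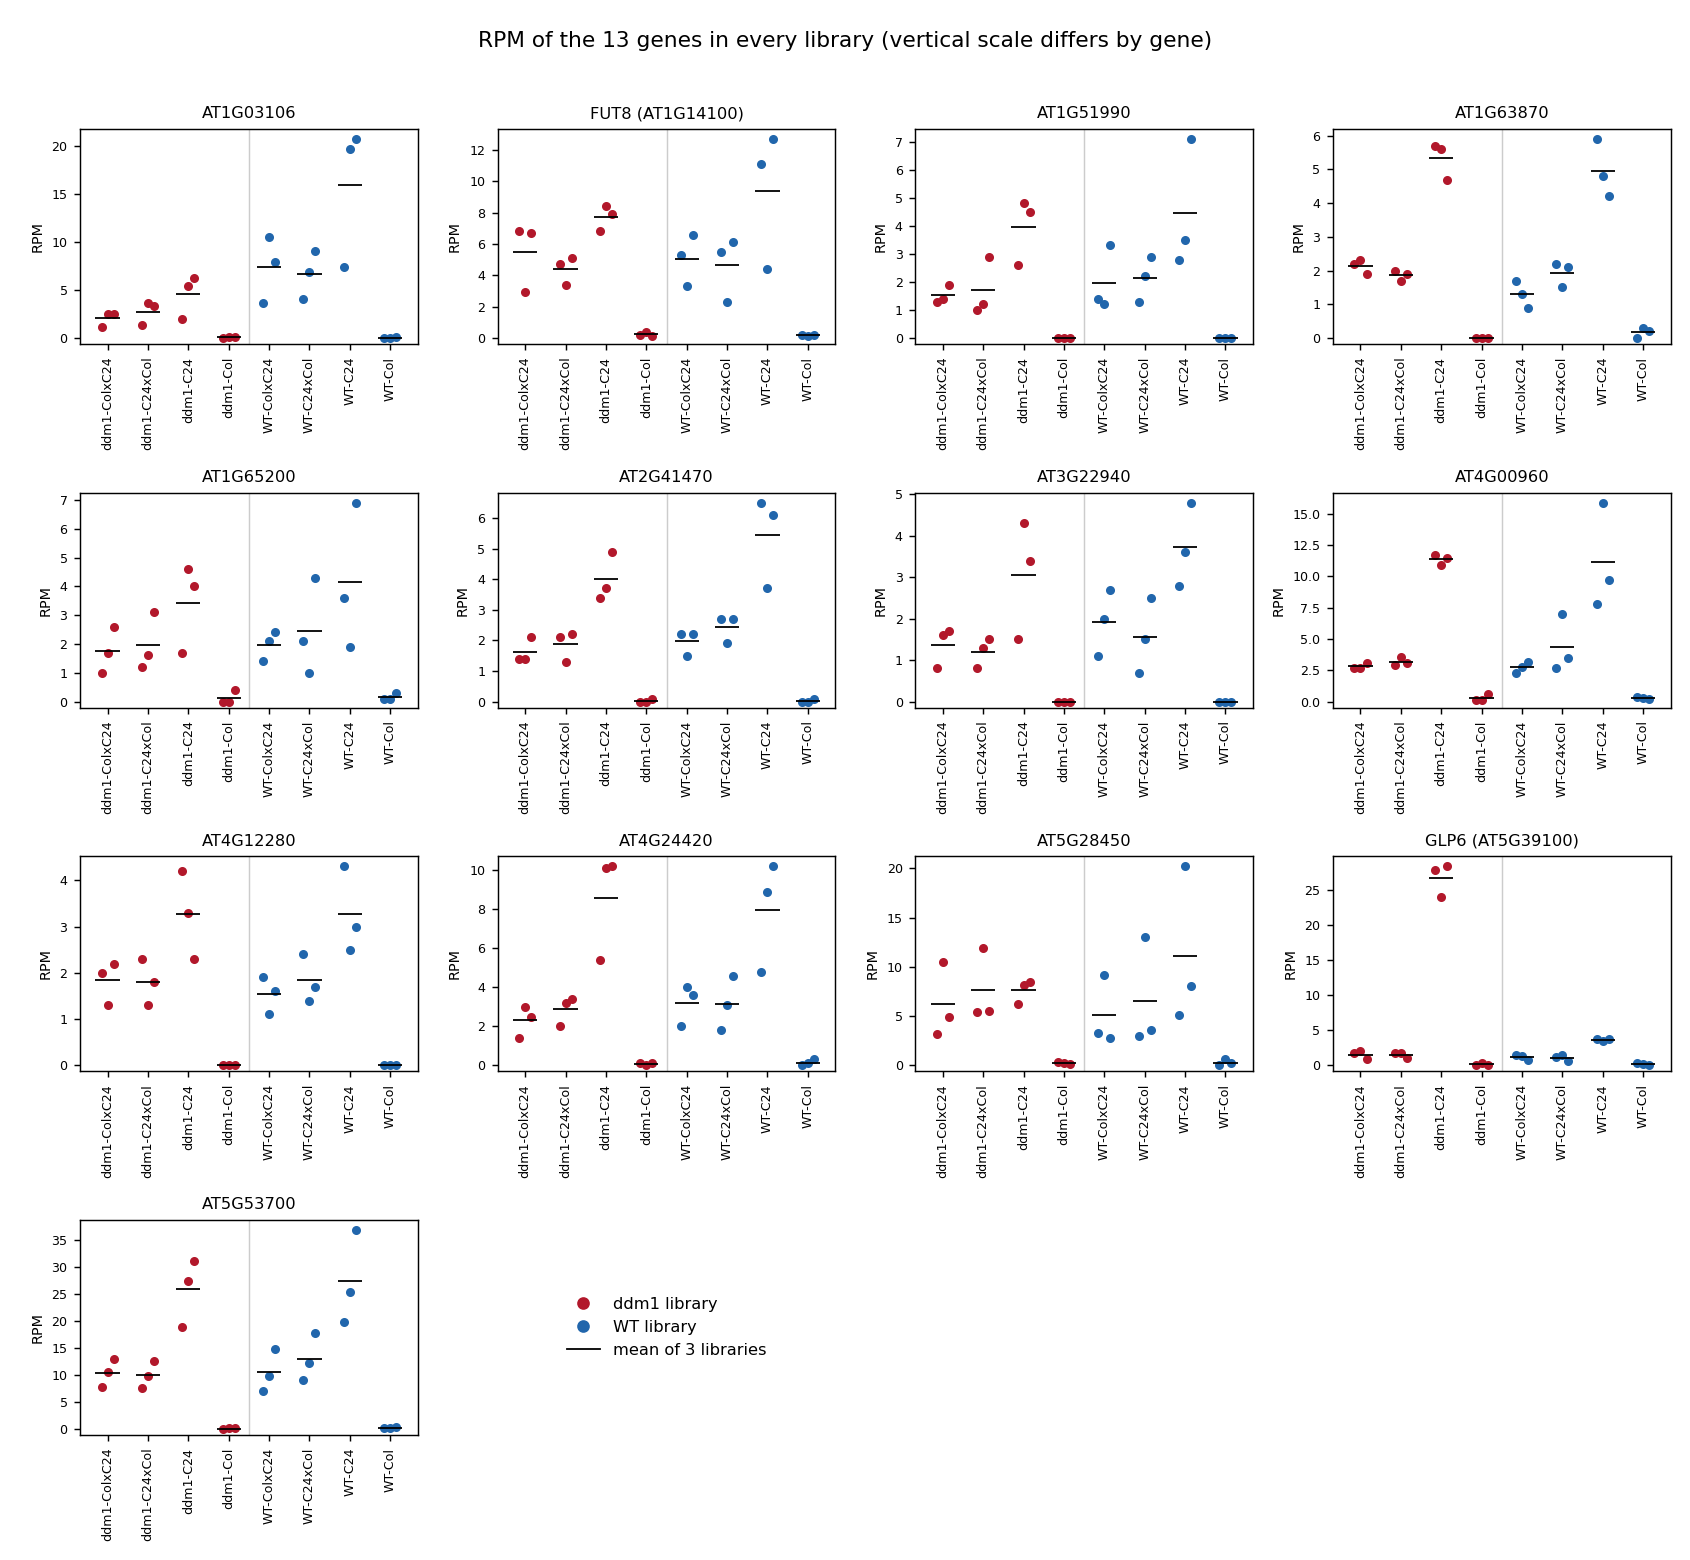
RPM of each of the 13 genes (vertical axes, linear, each with its own scale) in the 24 libraries, grouped by genotype along the horizontal axis, replicates 1 to 3 from left to right within a group, with a line at the mean of 3. In every panel the hybrid libraries lie above both Col genotypes, and GLP6 stands out with 24.1 to 28.4 RPM in ddm1-C24 and no more than 3.8 RPM elsewhere.

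All 13 genes were detected in all 12 hybrid libraries, and for each of them every hybrid library was above every Col library. In 6 of the 13 every C24 library was also above every hybrid library. The rule set the Col and C24 levels behind these counts, and no share over all genes was counted for them. The 52 dosage ratios, 1 per gene and hybrid group, lay within 0.25 of 1 in 37 cases. The median ratio over the 13 genes was 0.82 in ddm1-ColxC24, 0.86 in ddm1-C24xCol, 0.88 in WT-ColxC24 and 0.90 in WT-C24xCol. Taken per library, the median ran from 0.59 to 1.05 in ddm1-ColxC24, from 0.59 to 1.1 in ddm1-C24xCol, from 0.63 to 0.98 in WT-ColxC24 and from 0.65 to 1.14 in WT-C24xCol, so that the spread between libraries of a group covered 1 in all groups but WT-ColxC24. After rescaling the libraries by median ratios the median ratio was 0.88, 0.90, 0.92 and 0.94 in the same order.

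A ratio below 1 in all 4 hybrid groups was found in 7 of the 13 genes, which were GLP6, AT4G00960, AT1G63870, AT4G24420, AT2G41470, AT5G53700 and AT1G51990. A ratio above 1 in all 4 groups was found in 0 of 13. Both hybrid groups of a background share the same C24 dose, so the 4 groups are not independent. No share over all genes was counted for these numbers. In 6 genes, AT1G03106, AT1G51990, AT1G65200, AT3G22940, AT4G12280 and AT5G53700, the ratio stayed within 0.25 of 1 in every group. AT4G12280, the amine oxidase gene, was among the closest to 1, with ratios of 0.94 to 1.12 over the 4 groups, as was AT1G65200 with 0.95 to 1.19. The ratios of FUT8 lay between 0.99 and 1.42, and those of AT3G22940 between 0.78 and 1.04.

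**Figure D2:**
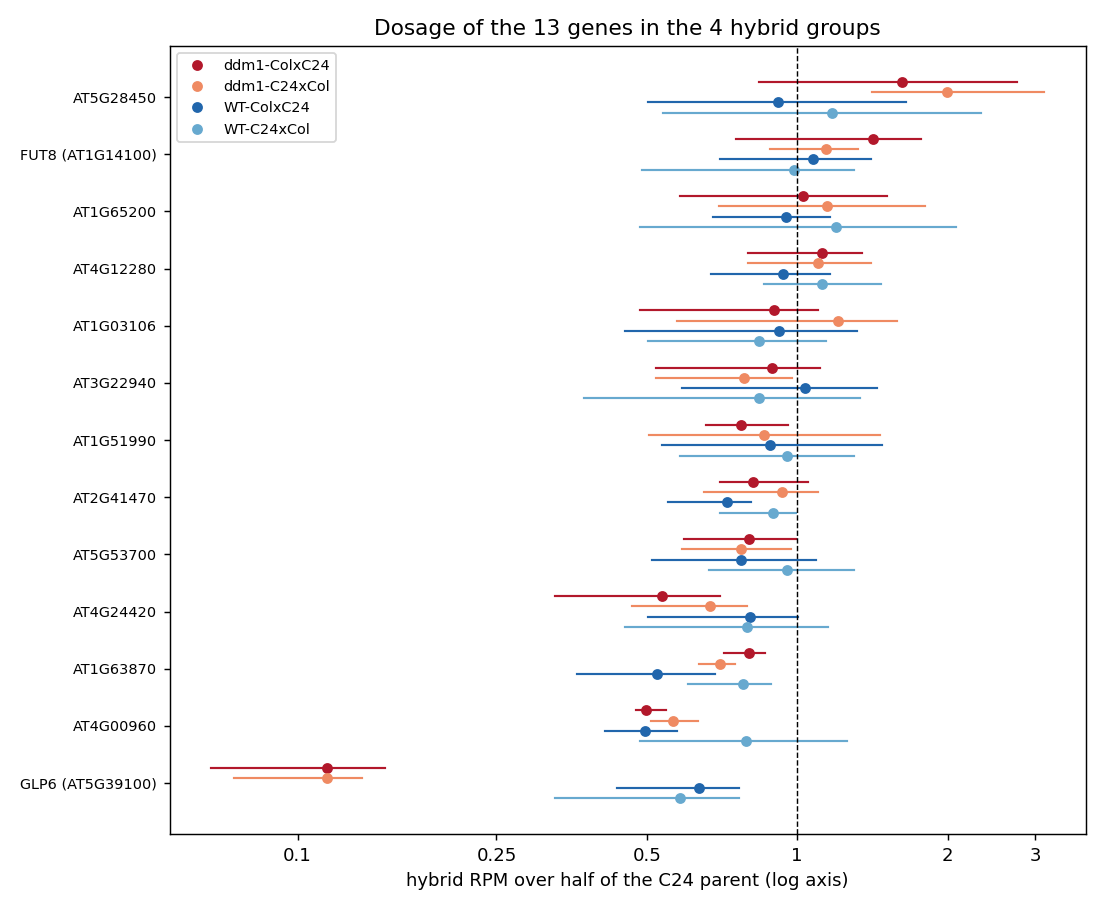
Dosage ratio (hybrid RPM over 0.5 of the mean RPM of the C24 parent of the same background, log axis) of each gene in the 4 hybrid groups. Points are ratios of group means, lines span the 3 hybrid libraries and the dashed line marks 1. GLP6 lies at 0.11 in both ddm1 hybrids and at 0.58 to 0.64 in the WT hybrids, and AT4G00960 lies at 0.50 to 0.79.

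For comparison, the reverse rule (at least 3 RPM in both Col parents and at most 0.3 RPM in both C24 parents) gave 85 genes. Since reads were aligned to the Col reference, a gene that Col lacks is not in the table, and the lengths of the lists cannot be read as numbers of genes per accession. Over 0.5 of their Col parent, the median ratio of these 85 genes was 1.12 in ddm1-ColxC24, 1.03 in ddm1-C24xCol, 1.1 in WT-ColxC24 and 1.04 in WT-C24xCol. Of the 13 genes, 69.2%, 61.5%, 84.6% and 76.9% were under 1 in these groups in the same order, against 22.4%, 38.8%, 30.6% and 35.3% of the 85. Of all genes tested against the MPV below, 63.9%, 64.3%, 70.5% and 69.5% had a log2 difference under 0 in that order. That measure is not the same as the ratio, and 9, 8, 11 and 10 of the 13 genes were under 0 on it. The median of the 13 genes was below that of the 85 in 12 of 12 hybrid libraries. All hybrid libraries of a background were divided by the same parental means, so these 12 are not independent. The medians of both lists moved together from library to library, with the highest medians in the libraries numbered 3, which also had the largest median-ratio size factors, and neither was tested against the other.

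**Figure D3:**
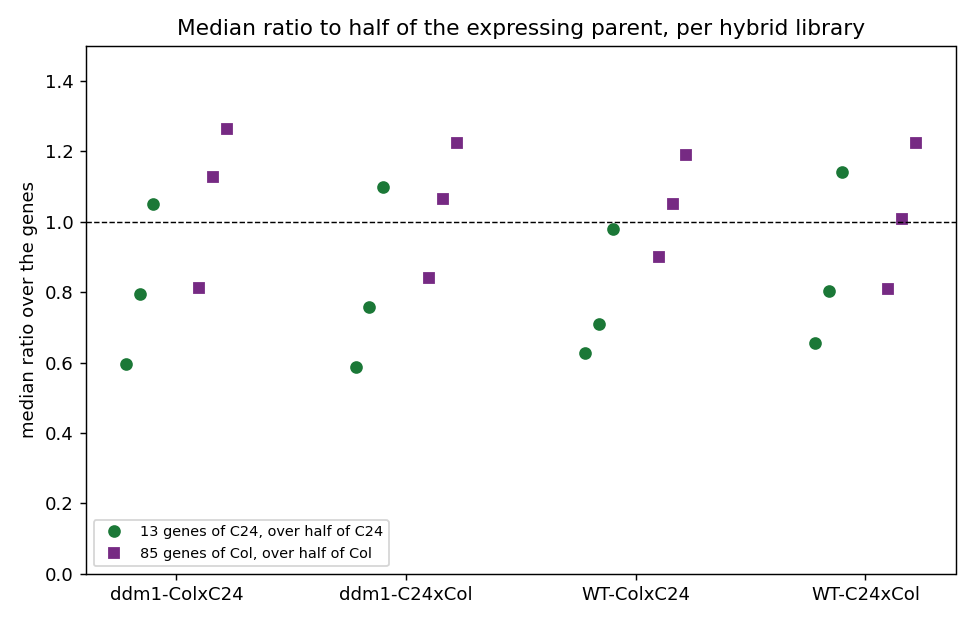
Median, over the genes of each list, of the ratio to 0.5 of the expressing parent (vertical axis) in each hybrid library, replicates 1 to 3 from left to right, for the 13 genes of C24 (circles) and the 85 genes of Col (squares). The circles lie between 0.59 and 1.14 and the squares between 0.81 and 1.26.

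Whether a gene departed from the mid-parent level was tested with limma on log2(RPM + 0.5) over all 22329 genes that reached 1 RPM in 3 or more libraries, a filter all 13 genes passed, with Benjamini-Hochberg adjustment. The C24 libraries behind the MPV also entered the selection, so that these tests are not independent of it, although the hybrid libraries are. On this scale the change of low genes is understated. The replicate numbers paired the libraries, and the fit with the replicate number as a block is given where it changed a call.

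In ddm1-F1, GLP6 and AT4G00960 were below the MPV. Of the 13 genes, 2 were called lower, against 2.11% of all tested genes, and 0 were called higher, against 0.116%. With the replicate block 4 were called lower, against 15% of all tested genes, and 1 higher, against 4.89%. The median difference was -0.17 over the 13 genes and -0.07 over all tested genes (log2), and 8 of the 13 were below 0, against 64.8% of all. After rescaling by median ratios these medians were -0.08 and -0.01.

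The largest departure was that of GLP6 (minus strand of chr5:15653125-15654028). The ddm1-ColxC24 libraries had 1.7, 2.0 and 0.9 RPM and the ddm1-C24xCol libraries 1.8, 1.8 and 1.0 RPM, whereas 27.9, 24.1 and 28.4 RPM were found in the libraries labelled ddm1-C24 and 0.1, 0.3 and 0 RPM in ddm1-Col. The hybrids thus lay closer to the Col parent than to the C24 dose, which was 13.4 ± 1.18 RPM (SD, n = 3), and the groups did not overlap. The mean of ddm1-F1 was 1.53 ± 0.46 RPM (SD, n = 6), a dosage ratio of 0.11. The log2 difference from the MPV was -2.81 ± 0.22 (SE), with a limma adjusted p of 0.000491. It was -2.82 in ddm1-ColxC24 alone and -2.80 in ddm1-C24xCol alone, with limma adjusted p of 0.0213 and 0.0166, and in both GLP6 was the 1 gene of the 13 called lower, against 0.448% and 0.497% of all tested genes. With the replicate block 4 were called lower in each direction, GLP6, AT4G00960, AT4G24420 and AT5G53700, against 13.7% of all tested genes in ddm1-ColxC24 and 10.8% in ddm1-C24xCol. The block also called AT5G28450 higher in ddm1-C24xCol, against 3.13% of all tested genes.

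AT4G00960, the protein kinase gene at chr4:414204-416355, showed a smaller departure. Its values in ddm1-ColxC24 were 2.7, 2.7 and 3.1 RPM, and those in ddm1-C24xCol 2.9, 3.6 and 3.1 RPM. They stood against 11.7, 10.9 and 11.5 RPM in ddm1-C24 and 0.1, 0.1 and 0.6 RPM in ddm1-Col. All 6 hybrid libraries were below 0.5 of every ddm1-C24 library, and the mean of ddm1-F1, 3.02 ± 0.34 RPM (SD, n = 6), was 0.53 of the C24 dose. The log2 difference from the MPV was -0.85 ± 0.14 (SE), with a limma adjusted p of 0.012. Its size changed little without the parental libraries numbered 1, 2 and 3 (leaving out either parent removes that MPV value), at -0.84, -0.89 and -0.82, and in ddm1-ColxC24 and ddm1-C24xCol alone, at -0.92 and -0.78. The limma adjusted p was 0.0563, 0.0695 and 0.0939 without these libraries and 0.137 and 0.239 in the single directions, so that without the block the call rests on all 3 MPV values and on both cross directions together. With the block the limma adjusted p was 0.00106 in ddm1-ColxC24 alone and 0.00414 in ddm1-C24xCol alone.

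Another 3 genes passed the threshold only with the replicate block. AT4G24420, with an RNA recognition motif, was at 1.4, 3.0 and 2.5 RPM in the ddm1-ColxC24 hybrids and at 2.0, 3.2 and 3.4 RPM in the reciprocal ddm1-C24xCol, compared with 5.4, 10.1 and 10.2 RPM in ddm1-C24. Its log2 difference from the MPV was -0.64, with a limma adjusted p of 0.614, and 0.00504 with the block. AT5G53700, the other such gene, was at 7.7, 10.5 and 12.9 RPM in the ddm1-ColxC24 hybrids and at 7.6, 9.8 and 12.6 RPM in the reciprocal ddm1-C24xCol, compared with 19.0, 27.5 and 31.2 RPM in ddm1-C24. In both genes the libraries numbered 1 were the lowest in every one of these groups. The log2 difference of AT5G53700 was -0.34, with a limma adjusted p of 1, and 0.00735 with the block.

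AT5G28450 was the gene in the other direction. The ddm1-ColxC24 libraries had 3.2, 10.5 and 4.9 RPM of it and the ddm1-C24xCol libraries 5.4, 11.9 and 5.5 RPM, against 6.2, 8.2 and 8.5 RPM in ddm1-C24. The libraries numbered 2 were the highest in both hybrids and also in WT-ColxC24, WT-C24xCol and WT-C24, where they had 9.2, 13 and 20.2 RPM. Its log2 difference from the ddm1-MPV was 0.63, with a limma adjusted p of 0.942, and 0.0467 with the block. Without ddm1-C24 replicate 2, an alternative chosen after seeing the data, the blocked log2 difference was 0.28 for AT5G28450 (limma adjusted p of 0.377), -0.29 for AT5G53700 (0.064) and -0.65 for AT4G24420 (0.0326). Leaving out this library removes MPV value 2, so in the blocked fit the hybrids numbered 2 no longer inform the difference. The smaller blocked estimate for AT5G28450 therefore rests on the libraries numbered 1 and 3 only. Without the block, its log2 difference was 0.67 without this library, against 0.63 with it. The blocked estimates for AT5G53700 and AT4G24420 were of similar size to those with this library. AT5G28450 is also a near copy of the abundant light-harvesting gene AT3G61470, so that its values are uncertain.

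In WT-F1 none of the 13 genes passed the threshold against the MPV. By limma 0 were called lower, against 0.0627% of all tested genes, and 0 higher, against 0.00448%. Over the 13 genes the median log2 difference was -0.15, against -0.07 over all tested genes. Below 0 were 10 of the 13, against 77.5% of all. At an unadjusted limma p under 0.05, 2 of the 13 were lower, AT1G63870 and GLP6, against 2.16% of all tested genes, and 0 were higher, against 0.179%. GLP6 had 1.4, 1.3 and 0.8 RPM in WT-ColxC24 and 1.2, 1.4 and 0.6 RPM in WT-C24xCol, against 3.8, 3.5 and 3.7 RPM in WT-C24 and 0.3, 0.2 and 0.1 RPM in WT-Col. All 6 hybrid libraries were below 0.5 of every WT-C24 library, and the dosage ratio was 0.61. The log2 difference from the MPV was -0.62 ± 0.19 (SE), with a limma adjusted p of 1, and of 0.121 with the block.

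AT4G00960 had 2.3, 2.8 and 3.2 RPM in WT-ColxC24 and 2.7, 7.0 and 3.5 RPM in WT-C24xCol, against 7.8, 15.9 and 9.7 RPM in WT-C24. The libraries numbered 2 of WT-C24xCol and WT-C24 were the highest of their groups. Its log2 difference from the WT-MPV was -0.64 ± 0.33 (SE), with a limma adjusted p of 1. AT1G63870, the immune receptor gene, had 0.9 to 1.7 RPM in WT-ColxC24 and 1.5 to 2.2 RPM in WT-C24xCol, against 4.2 to 5.9 RPM in WT-C24. In ddm1 it had 1.9 to 2.3 RPM in ddm1-ColxC24 and 1.7 to 2.0 RPM in ddm1-C24xCol, against 4.7 to 5.7 RPM in ddm1-C24, with all 6 hybrid libraries below 0.5 of every ddm1-C24 library and a limma adjusted p of 0.579. Taken by cross direction, 0 of the 13 genes were called lower in WT-ColxC24 and in WT-C24xCol by limma, against 0.0269% and 0.0358% of all tested genes, and 3 and 1 had an unadjusted p under 0.05 in that direction, against 1.62% and 1.2% of all tested genes.

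**Figure D4:**
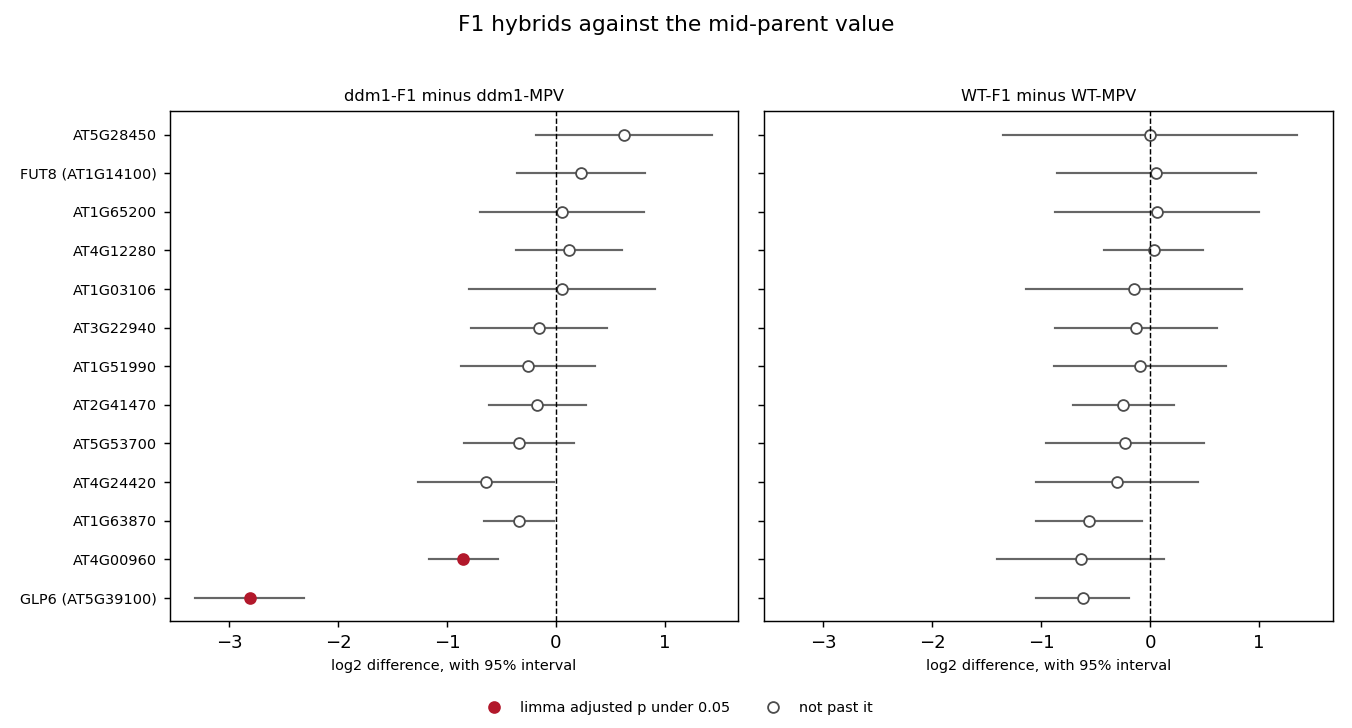
Log2 difference of F1 from the MPV on log2(RPM + 0.5), with its 95% interval, for each gene in ddm1 (left) and WT (right). Filled points passed a limma adjusted p of 0.05, which were GLP6 at -2.81 and AT4G00960 at -0.85 in ddm1 and 0 genes in WT.

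The departure of GLP6 from the MPV differed between the backgrounds. The difference of differences, ddm1 minus WT, was -2.19 ± 0.30 (SE), with a limma adjusted p of 0.000632. The C24 libraries of both backgrounds entered the selection, so that this test is not independent of it. Of the 13 genes, 1 was called lower in this test, against 0.721% of all tested genes, and 0 were called higher, against 0.0403%. The interval of the difference was -2.82 to -1.56. The hybrid levels of GLP6 themselves were close in the backgrounds, 1.53 ± 0.46 RPM in ddm1-F1 and 1.12 ± 0.34 RPM in WT-F1 (SD, n = 6 each), whereas the parent labelled ddm1-C24 had 26.8 ± 2.35 RPM and WT-C24 3.67 ± 0.15 RPM (SD, n = 3 each). For the other 12 genes the difference between backgrounds was not past the threshold, with estimates from -0.34 (AT4G24420) to 0.63 (AT5G28450) and wide intervals, -0.84 to 2.10 for AT5G28450 and -0.96 to 0.53 for AT4G00960.

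The comparison of ddm1-F1 with WT-F1 used no library that entered the selection. The uncharacterized gene AT1G03106 (minus strand of chr1:748101-749034) was lower in ddm1-F1, and 1 of the 13 genes was so called, against 1.18% of all tested genes, while 0 were called higher, against 9.23%. The block called 1 lower, against 11.5% of all tested genes, and 1 higher, against 13.5%. The median difference was -0.17 over the 13 genes and -0.03 over all tested genes (log2), and 8 of the 13 were below 0, against 55.8% of all.

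The ddm1-ColxC24 libraries held AT1G03106 at 1.1, 2.5 and 2.5 RPM, against 3.6, 10.5 and 7.9 RPM for WT-ColxC24. The ddm1-C24xCol libraries held it at 1.3, 3.6 and 3.3 RPM, against 4.0, 6.9 and 9.1 RPM for WT-C24xCol. The ranges met only at 3.6 RPM, and with the same replicate number every ddm1 library was below its WT counterpart. The mean was 2.38 ± 1.02 RPM in ddm1-F1 and 7.00 ± 2.76 RPM in WT-F1 (SD, n = 6 each), and the log2 difference was -1.37 ± 0.31 (SE), with a limma adjusted p of 0.007. The C24 parents differed the same way, with 2.0, 5.4 and 6.2 RPM in ddm1-C24 and 7.4, 19.7 and 20.7 RPM in WT-C24. The dosage ratio was therefore near 1 in both backgrounds, 1.05 in ddm1 and 0.88 in WT. In the crosses taken alone, with 3 libraries against 3, the log2 difference was -1.57 in ColxC24 and -1.17 in C24xCol, with limma adjusted p of 0.111 and 0.31.

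The seed markers moved the same way in the C24 parents, and their ranges in the hybrids were lower in ddm1 but overlapped those in WT. Within the ColxC24 direction their sum was 1.0 to 3.2 RPM in ddm1-ColxC24 and 2.7 to 137.5 RPM in WT-ColxC24, and within the other direction 31.4 to 156.3 RPM in ddm1-C24xCol and 132.5 to 611 RPM in WT-C24xCol. AT1G03106 averaged 7.33 RPM in WT-ColxC24 and 6.67 RPM in WT-C24xCol, and 2.03 RPM in ddm1-ColxC24 and 2.73 RPM in ddm1-C24xCol. The part of seed transcripts in the result for AT1G03106 was not tested.

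GLP6 was called higher in ddm1-F1 than in WT-F1 only with the block, with a log2 difference of 0.33 and a limma adjusted p of 0.0179, against 0.594 without it. For the other 11 genes the estimates lay between -0.29 (AT3G22940) and 0.34 (AT5G28450), and none passed the threshold in either fit. The interval for AT4G00960 was -0.59 to 0.31, for AT5G53700 -0.65 to 0.31 and for FUT8 -0.54 to 0.61, and a p that misses the threshold does not show that these levels are alike.

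**Figure D5:**
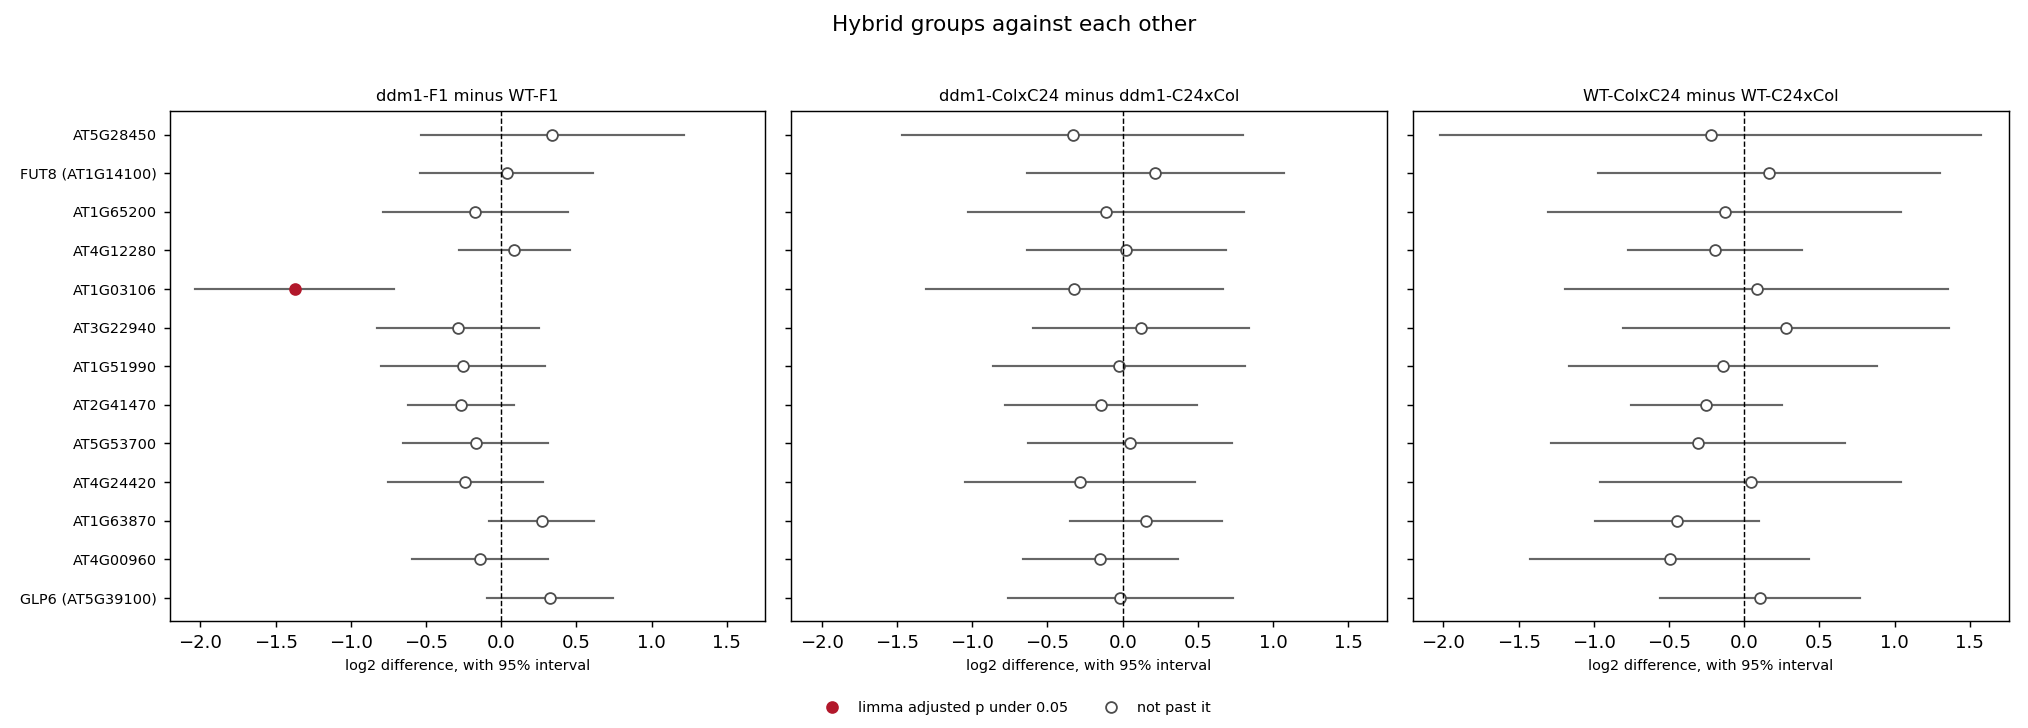
Log2 difference, with its 95% interval, of each gene between ddm1-F1 and WT-F1 (left), between the cross directions in ddm1 (middle) and between the cross directions in WT (right). AT1G03106 at -1.37 in the left panel is the only filled point, that is, past a limma adjusted p of 0.05.

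Between the directions of the cross none of the 13 genes passed the adjusted threshold, with or without the block. Between ddm1-ColxC24 and ddm1-C24xCol limma called 0 of the 13 genes higher and 0 lower, against 0% and 0% of all tested genes, and between WT-ColxC24 and WT-C24xCol it called 0 higher and 0 lower, against 0.0179% and 0.00448%. At an unadjusted p under 0.05 and without the block, the count was 0 in all 4 of these. With the block, at the same unadjusted limma p, 0 were higher and 2 lower in ddm1 (AT1G03106 and AT5G28450), against 5.89% and 6.61% of all tested genes, and 1 was higher (AT3G22940) and 2 lower (AT2G41470 and AT5G53700) in WT, against 1.58% and 2.56%. None of these passed after adjustment, with limma adjusted p of 0.306 or more. The largest estimate was -0.50 in WT (AT4G00960, interval -1.43 to 0.43) and -0.33 in ddm1 (AT5G28450, interval -1.47 to 0.80). For GLP6 the difference between directions was -0.01 in ddm1 (interval -0.76 to 0.73), so that its low level was found with C24 as the mother and with C24 as the father.

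Near-identical copies can share reads with a gene and make its values uncertain. The strand setting of the counting is not given in the sources used here. For each gene the best matching other transcript was found in the Col reference. AT5G28450 was 97.6% identical over 411 bp to AT3G61470, a photosystem I light-harvesting gene on chromosome 3 with 3130 RPM in WT-C24 and 3207 RPM in WT-Col, and 1.67% of its 90-base windows (the read length in the labels) occurred elsewhere in the genome without a mismatch. GLP6 was 90.2% identical to the nearby AT5G39110 (0.27 RPM in WT-C24 and 0.80 RPM in WT-Col), AT4G00960 89.8% to the nearby CRK41 (AT4G00970, 7.5 RPM in WT-C24 and 8.7 RPM in WT-Col) and AT4G12280 89.2% to the nearby AT4G12290 (192.5 RPM in WT-C24 and 165.3 RPM in WT-Col). AT1G63870 was 77.4% identical to its neighbour AT1G63880, and 0.787% of its windows occurred elsewhere. The other 11 genes, GLP6 and AT4G00960 among them, had 0 such windows. The windows count exact matches within the Col reference only. They cannot show whether reads of C24 alleles, or reads with mismatches, were shared. Sharing of reads with these copies was not tested, including that of AT4G12280 with the far more abundant AT4G12290.

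The genes lay alone. None of the 26 genes that flank them met the rule, and of the 20 flanking genes with at least 1 RPM in WT-C24 or WT-Col, 12 were within 2 times of each other in these parents, 3 were more than 2 times higher in WT-C24 and 5 more than 2 times lower. AT4G00955, next to AT4G00960, was 3.03 times as high in WT-C24 as in WT-Col, and AT4G12270, next to AT4G12280, 4.12 times. AT1G63860, next to AT1G63870, was at 0.73 RPM in WT-C24 and 7.43 RPM in WT-Col, that is, it differed the other way.

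By words in the annotation, 1 of the 13 genes was an immune receptor (0.935% of the genes in the table), 1 a kinase (4.59%), 1 an F-box gene (2.46%) and 2 belonged to specialized metabolism (FUT8 and AT1G51990, 5.01%). On the list of transcription factors were 2 (10.1%), AT2G41470 by its product name and AT1G65200 through a zinc finger domain in its note, and AT1G65200 was also the 1 gene on the list of proteases and inhibitors (3.71%). The list of unknown function, which also catches notes that mention a domain or process of unknown function, held 5 (45.8%). No gene was on the lists of transposable elements and pseudogenes (11% of the table), secreted peptides (6.21%) or salicylic acid (1.1%). With 13 genes these counts are a description. The median transcript length was 1230 bp, against 1632 bp over the table.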

How the data were processed

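RNA sequencing of 24 libraries was analysed, and the 4 bisulfite samples of the study were not analysed here. Per the labels and the study's methods, the authors trimmed paired-end reads of 90 bases, aligned them to TAIR10 with TopHat, summarised them by gene using HTSeq and deposited RPM, that is, reads scaled to a common total in each library (versions are not given in the sources used here). RPM values were in steps of 0.1 (100% of values) and columns summed to 999819.3 to 1000187.1, so that read counts were not recovered, no count model was used and the depth of a library is unknown. The table held 0 columns of other samples. Genome positions are those of TAIR10.1, whose nuclear chromosomes are those of TAIR10.

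Genes with at least 1 RPM in 3 libraries (22329, with 6108 left out) were tested as log2(RPM + 0.5) with limma 3.58.1 (R 4.3.3, trend option, two-sided, Benjamini-Hochberg adjusted p under 0.05), each comparison on its own libraries. For the MPV, RPM of both parents were averaged arithmetically within each replicate number, giving 3 values in each background. Replicate numbers paired the samples, which was taken from the data and not from the labels. Deviations from group means correlated at 0.757 on average (lowest 0.159, 84 pairs) between libraries of the same number. Between different numbers they correlated at -0.36 (168 pairs), a value largely fixed by centring each group on its own mean. The fits were also run on simulated data, and the outcome is not reported here. Copies were sought with BLAST+ 2.17.0 among spliced transcripts, and motifs with Python 3.11.15. The count test of the study could not be run on RPM. The 13 genes and all lists were chosen with earlier results of these data known. Genes were named by C24 level, by dosage ratio, by calls in any comparison, by annotation list and by nearness to the limits of the rule, while copies, flanking genes and genes called only with the block were named after their values were seen. The pollen marker of the marker lists was not used here, and the sums of 3 root and 5 flower markers were 55.4 to 206.5 and 3.3 to 16.7 RPM.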

Additional observations from a re-analysis of the deposited data

Results flagged for a closer look

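AT4G00960 had 7.0 RPM in WT-C24xCol replicate 2, while the other 5 WT-F1 libraries had no more than 3.5 RPM. The gap to the nearest library was 0.745 of the range of the 6 libraries, above Dixon's critical value for 6 samples. Of 26 such groups of 6 hybrid libraries, 1 exceeded it, and chance gives about 1 in 20.

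GLP6 (AT5G39100) departed from the MPV differently in the backgrounds, with a difference of -2.19 on the log2 scale (ddm1 minus WT, limma adjusted p = 0.000632, n = 6 hybrid libraries and 3 MPV values per background). All 6 hybrid libraries were below 0.5 of every C24 library in each background. The C24 libraries also entered the selection of the genes, and the hybrid levels were close in the backgrounds.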

How the results depend on the processing

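Of the results for which other settings were tried, 0 changed sign. GLP6 stayed below the ddm1-MPV in 22 of 22 alternatives (limma adjusted p 1.41e-06 to 0.0213) and its difference between backgrounds in 32 of 32 (9.32e-06 to 0.00976). The call for AT4G00960 was lost in 8 of 22 alternatives (adjusted p 0.000288 to 0.239) and that for AT1G03106 in 2 of 20 (3.62e-07 to 0.31). In the tests that use an MPV, leaving out either parental library of a replicate number gave the same fit, so their counts hold duplicates.

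With the replicate block, and with the block on rescaled RPM, the counts called were 4 lower and 1 higher in ddm1-F1 against the MPV and 1 higher in ddm1-F1 against WT-F1. The block changed no other call in the comparisons of 6 hybrid libraries. Over the alternatives the limma adjusted p ran from 0.00504 to 1 for AT4G24420, 0.0378 to 1 for AT5G28450 and 0.00735 to 1 for AT5G53700 against the ddm1-MPV, from 0.0337 to 1 for GLP6 against the WT-MPV and from 0.0101 to 1 for GLP6 in ddm1-F1 against WT-F1. Without ddm1-C24 replicate 2 the blocked difference from the MPV rests on the libraries numbered 1 and 3. The block then called 3 lower (7.52% of all tested genes) and 0 higher (1.89%) in ddm1-F1 against the MPV. Rescaling within the block and leaving out ddm1-C24 replicate 2 were chosen after seeing the data. Over all tested genes the block called 1093 higher and 3345 lower in ddm1-F1 against the MPV (26 and 471 without it), 7 and 82 in WT-F1 against the MPV (1 and 14), 3021 and 2569 in ddm1-F1 against WT-F1 (2061 and 263), 109 and 99 between ddm1 cross directions (0 and 0) and 59 and 527 in the difference between backgrounds (9 and 161). In a single cross direction 1 was called lower in ddm1-F1 against the MPV, in ColxC24 and in C24xCol, without the block (with it 4 in each, and 1 higher in C24xCol), and 0 were called lower in ddm1-F1 against WT-F1 in either. With the C24 dose in place of the MPV 1 was called lower in WT-F1 (GLP6, log2 difference -0.56, limma adjusted p = 0.0337). That fit called 56.2% of all tested genes. The list itself held 76 genes at a C24 limit of 1 RPM, 5 at 6 RPM, 3 with 0 in all 6 Col libraries and 5 with the rule met in each of 12 libraries.

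With each library left out in turn, the number called lower in ddm1-F1 against the MPV was 1 to 2, and the median dosage ratio lay at 0.71 to 0.92 in ddm1-ColxC24, 0.69 to 0.98 in ddm1-C24xCol, 0.73 to 0.95 in WT-ColxC24 and 0.78 to 0.98 in WT-C24xCol. With ratios of same-numbered libraries (the pairing) the medians were 0.81, 0.85, 0.87 and 0.91 in the same order. The depth of the libraries is unknown, and a hybrid level near 1 RPM spans few steps of 0.1 RPM, which limits what can be seen in single genes.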
